A study of Rattus norvegicus with 12 samples.

Results

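Gene expression was compared between the right lungs of Dahl salt-sensitive (SS) rats and Brown Norway (BN) rats that had undergone HTV ventilation, a ventilation mode that the labels abbreviate and do not spell out. The comparison rests on 6 of the 12 arrays of the series, 3 titled as SS HTV and 3 as BN HTV, chosen by their titles. The other 6 arrays, 3 SS control and 3 BN control, gave the same strain comparison without HTV. SS is an inbred strain in which dietary salt raises blood pressure, BN is an inbred strain with normal pressure, and the series design calls the strains parents. All animals weighed 250 to 350 g, every sample of the series carries the same remark on room air, and no age, sex, ventilator setting or duration is given. The pulmonary vessels were flushed with saline before freezing, and total RNA of whole lung tissue was hybridised to Affymetrix rat arrays, so fewer cells of a type and less RNA per cell cannot be told apart. The labels do not say that the 3 arrays of a group come from separate animals, so each p-value covers only how far such samples vary, which may be technical. Samples are numbered 1 to 3 within a group.

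Interferons are secreted proteins that signal through cell-surface receptors, Jak kinases and transcription factors of the Stat and Irf families, and so switch on genes that restrict viruses and present antigen. The lung's scaffold is made by fibroblasts and other stromal cells from collagen fibres, elastic microfibrils, basement membrane laminins and small proteoglycans. Lung macrophages comprise alveolar macrophages, which clear surfactant and particles from the airspace, and interstitial macrophages and monocytes, which are a main source of complement C1q.

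Each array measured 31099 probe sets, of which 18626 were bright enough over the 12 arrays to be tested, standing for 10555 genes. Levels are deposited intensities, with a median of 58.5 to 68.1 per array. Differences are SS minus BN on the log2(intensity + 16) scale with the standard error (SE) of limma, on which 1 unit is a 2-fold difference and changes of dim genes are understated. "Past the test" means an adjusted p under 0.05 over all tested probe sets, and n = 3 in every group. Lung markers were bright on all arrays, with the surfactant genes Sftpc at 2920 to 4581 and Sftpb at 2671 to 3585, Ager of alveolar type 1 cells at 2182 to 2761, and the club cell gene Scgb1a1 at 3071 to 4681. The Y-linked genes Eif2s3y and Uty were also measured on every array, at 260.8 to 403.8 and 293.6 to 448.3.

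A measure of RNA quality moved with strain. The log2 ratio of the 5′ to the 3′ control probe set of beta-actin, which falls as RNA is degraded, was -1.01, -0.67 and -0.39 in the SS HTV arrays and -1.15, -1.25 and -1.35 in the BN HTV arrays. These groups did not overlap, with means of -0.69 ± 0.31 and -1.25 ± 0.10 (SD) and a difference of 0.56 (two-sided exact permutation test, p = 0.1, the smallest that 3 against 3 arrays allow). For GAPDH the same ratio differed by 0.23 (exact permutation test, p = 0.2). The list counts below are therefore also given from a fit with the beta-actin ratio as a covariate. SS control 3 stood apart from its group. Its beta-actin ratio was -1.40, against -0.51 and -0.23 on the other SS controls. Its RT1-CE5 intensity was 498.4, against 0.7 to 2.2 on the other SS arrays and 714.1 to 1052.6 on the BN arrays. Its Clec3b intensity of 198.4 likewise lay between the other SS arrays (3.9 to 6.5) and the BN arrays (326.2 to 673.2), and its Aox1 intensity of 38.1 lay within the BN range (38 to 64.1) and below the other SS arrays (238 to 274.9). The covariate moved the HTV difference from -5.53 to -3.95 for RT1-CE5, from -4.21 to -3.17 for Clec3b and from 2.03 to 1.20 for Aox1. How far SS control 3 set the shifts made by the covariate was not tested. Where a control value is printed, that without SS control 3 is added if the call changed. It is also added if a difference, median or count moved by over 1.5 times. Control calls of other genes named below changed too without SS control 3. For example, Isg15 (adjusted p = 0.0592 with it and 0.0173 without it) and Col1a2 (0.0505 and 0.0182) gained a control call. Clec4a3 lost its control call (0.0218 and 0.0585). Among HTV arrays, SS HTV 2 and BN HTV 3 had the lowest Il1b and Cxcl2 intensities of their groups.

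In HTV lungs 768 of 10555 genes (7.28%) were past the test between strains. Of these, 423 (4.01%) were higher in SS and 345 (3.27%) higher in BN, and 77 (0.73%) and 83 (0.786%) of them differed by at least 2-fold. With the beta-actin covariate 161 (1.53%) were higher in SS and 124 (1.17%) higher in BN. The arrays of the strains did not overlap for 15.9% of genes in the direction of SS and 12.5% in the direction of BN. Without SS HTV 2 the count of genes past the test was 332 (3.15%), and without BN HTV 3 it was 610 (5.78%). Without SS control 3, which enters only through the shared estimate of spread, it was 1104 (10.5%).

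**Figure D1:**
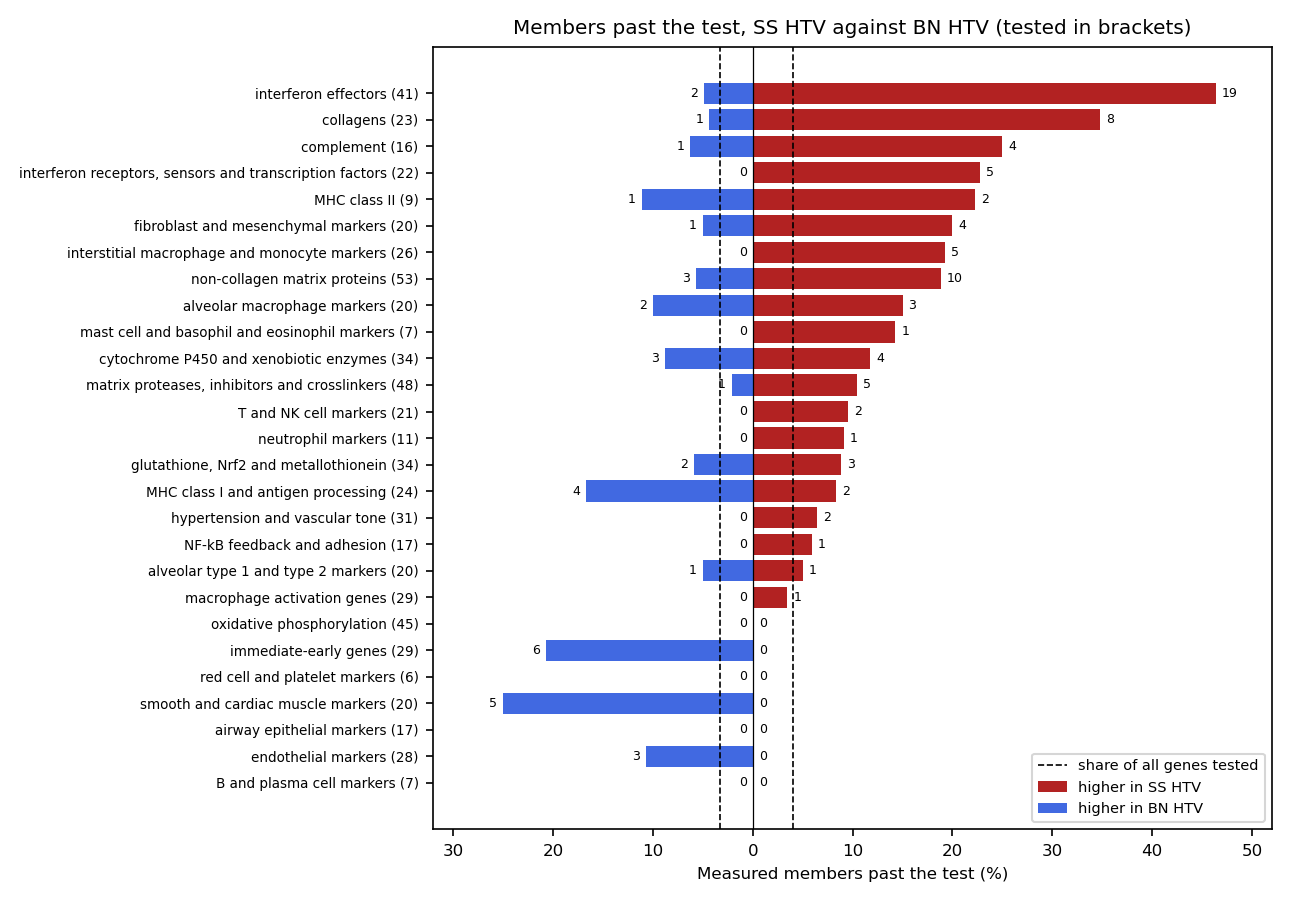
Share of the measured members of each gene list past the test between SS HTV and BN HTV lungs, in percent, to the right where higher in SS and to the left where higher in BN. The numbers at the bar ends are counts of genes, brackets hold the number tested, and dashed lines mark the shares among all genes tested, 4.01% and 3.27%; interferon effectors (19 of 41) and collagens (8 of 23) reach farthest towards SS, and muscle markers (5 of 20) and immediate-early genes (6 of 29) towards BN.

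Interferon effectors that passed the test between HTV lungs were mostly higher in SS. Of 41 measured interferon effectors, 19 (46.3%) were higher in SS, 2 (4.88%) were higher in BN and 20 did not pass, with a median difference of 0.55 against 0.01 over all genes. Of 22 receptors, sensors and transcription factors of the pathway, 5 (22.7%) were higher in SS and 0 in BN, with a median of 0.18. These counts take the brightest probe set of each gene. For the receptor gene Ifnar2 that probe set did not pass (0.48, adjusted p = 0.207). A dimmer Ifnar2 probe set was past the test towards BN (-1.44, adjusted p = 0.00154). With the beta-actin covariate the effectors had 11 higher in SS and 1 higher in BN, and the upstream genes 4 and 0.

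Upstream in the pathway, Irf7, the transcription factor that amplifies interferon production, had an intensity of 644.3, 593.2 and 687.9 in the SS HTV arrays and 193.5, 191.6 and 166.6 in the BN HTV arrays. Every SS array was more than 3 times as bright as every BN array, and the difference was 1.72 ± 0.23 (adjusted p = 0.000566). Irf9, the DNA-binding subunit of the complex that carries the receptor signal to the nucleus, stood at 380.5, 423.6 and 451.8 against 242.1, 264.9 and 210.9. That gap was narrower, at 0.77 ± 0.14 (adjusted p = 0.00461), again without overlap. The cytosolic RNA sensors Dhx58 and Ifih1 differed by 1.05 ± 0.19 and 0.75 ± 0.21, and Usp18, which strips Isg15 from proteins and dampens receptor signalling, by 1.53 ± 0.26. The call of Ifih1 was lost without any of SS control 1, BN control 3, BN HTV 1, BN HTV 3 or SS HTV 1, 2 or 3 (adjusted p up to 0.136). Stat2, the partner of Irf9, did not pass (0.18 ± 0.14, adjusted p = 0.492), nor did Irf1 (0.77 ± 0.38, adjusted p = 0.237), whose SS intensities of 1867, 717.2 and 1627 overlapped the BN range of 378.7 to 1126.

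Among effectors, the ubiquitin-like modifier Isg15 was measured at 529.1, 487.5 and 558.4 in SS HTV and at 180.0, 155.6 and 112.5 in BN HTV lungs, a difference of 1.73 ± 0.26 (adjusted p = 0.00119). Ifit3, which binds foreign RNA in a complex with its relatives, stood at 529.0, 503.4 and 678.1 against 202.0, 139.1 and 113.2. It had the largest difference of the effectors, 1.83 ± 0.26 (adjusted p = 0.000859). The antiviral GTPase Mx1 was at 197.2, 214.8 and 294.1 against 65.0, 66.2 and 44.9, a difference of 1.74 ± 0.31 (adjusted p = 0.00362). In each of these genes the lowest SS array lay above the highest BN array. The same separation held for Rsad2, which encodes viperin (1.35 ± 0.23), the interferon-gamma-induced GTPase Igtp (1.28 ± 0.22), Ifi27l2b (1.28 ± 0.16), the oligoadenylate synthetase-like gene Oasl (1.20 ± 0.21) and Herc6, a ubiquitin ligase family member (1.13 ± 0.23). Smaller differences were found for Ifi27 (0.92 ± 0.12), which was bright on all arrays at 2667 to 3292 in SS and 1544 to 1601 in BN, Ifit2 (0.84 ± 0.14), the ADP-ribosyltransferase Parp14 (0.70 ± 0.11; 0.40 in a second probe set, adjusted p = 0.303) and Ifitm1, a membrane protein that limits viral entry (0.55 ± 0.11).

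Those 12 effector calls and those of Irf7, Irf9, Dhx58 and Usp18 were kept whichever of the 12 arrays was left out, and with the covariate all but that of Herc6 (adjusted p = 0.0833). The calls of Mx2, Gbp2, Ifi44, Eif2ak2, Lgals9, Rtp4 and Casp1 were each lost without at least 1 array (adjusted p up to 0.13), and SS HTV 3 and BN HTV 2 were among those arrays for each of these genes. Without SS HTV 3 or without BN HTV 2 the effectors had 12 genes higher in SS, and without BN HTV 3 they had 13. The effectors higher in BN were Bst2, the tetherin that holds budding virus at the cell surface, at 1456, 1728 and 1688 in BN and 1166, 1007 and 830.3 in SS (-0.70 ± 0.14, adjusted p = 0.00952), and Trim25, a ubiquitin ligase of RNA sensing (-0.81 ± 0.16, adjusted p = 0.00874). Both BN-higher genes also differed in control lungs, by -0.89 and -0.90, and the covariate ended the HTV call of Trim25 (adjusted p = 0.0586). The interferon-induced chemokine Cxcl10 did not pass (0.75 ± 0.36, adjusted p = 0.229).

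**Figure D2:**
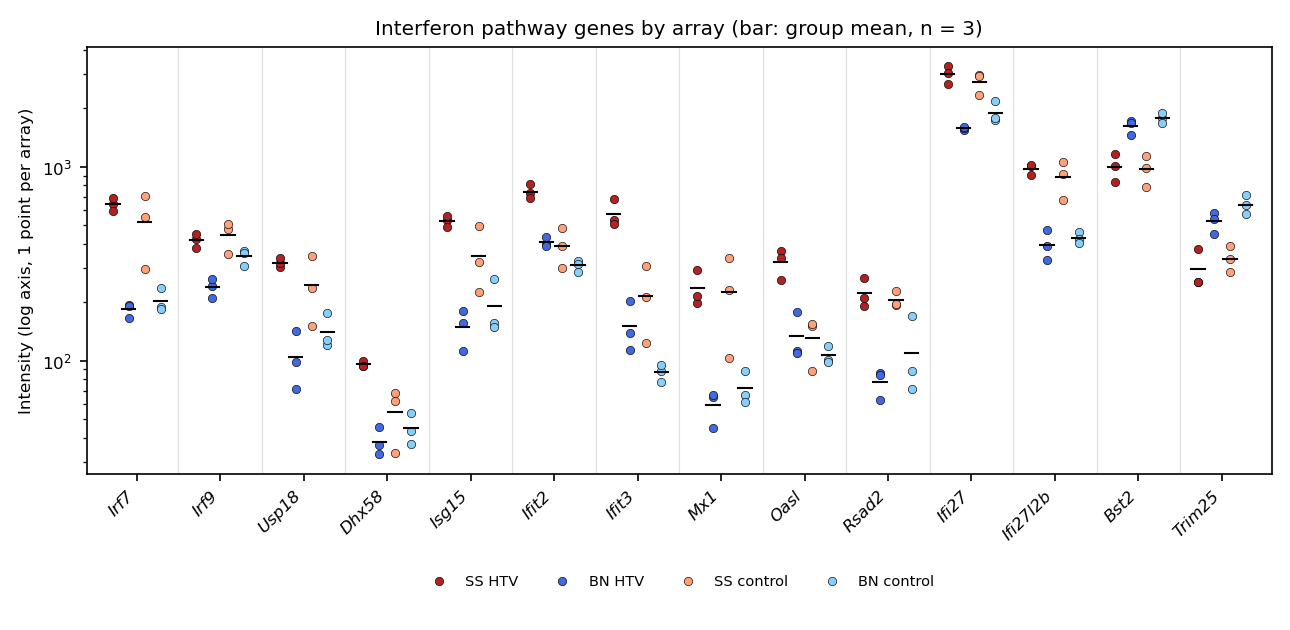
Intensity of 14 interferon pathway genes (log axis), with 1 point per array and a bar at the mean of each group of 3. SS HTV points lie above BN HTV points for every gene from Irf7 to Ifi27l2b and below them for Bst2 and Trim25, and 1 SS control array lies near the BN controls for most genes.

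The promoters of these genes were read from RefSeq windows of the rat assembly GRCr8 for the interferon-stimulated response element core, the letters GAAA, any pair of bases and GAAA again on either strand, in the 250 bases before the gene start. Of 19 effectors higher in SS, 13 had a promoter entry and 10 of those (76.9%) held the core. Effectors that did not pass held it in 10 of 17 promoters (58.8%), and all 33469 promoters of the table in 1140 (3.41%). Effectors that passed and those that did not thus both held the core in a larger share than promoters of the whole table. Windows from Irf7 and 4 effectors higher in SS whose calls were kept whichever array was left out, and from Bst2 as a gene of the opposite direction, are printed 5′ to 3′ on the gene's strand with the core in capitals. A core on the opposite strand reads TTTC, a pair of bases and TTTC.
Ifit3, chr1:241527257-241527316, + strand: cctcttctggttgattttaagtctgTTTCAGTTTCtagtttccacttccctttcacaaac
Rsad2, chr6:48788233-48788292, - strand: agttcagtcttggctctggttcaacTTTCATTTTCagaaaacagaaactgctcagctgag
Igtp, chr10:42874919-42874978, + strand: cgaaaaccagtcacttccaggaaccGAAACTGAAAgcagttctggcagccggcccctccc
Parp14, chr11:78408033-78408092, + strand: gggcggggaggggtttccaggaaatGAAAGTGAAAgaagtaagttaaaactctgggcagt
Irf7, chr1:205800058-205800117, - strand: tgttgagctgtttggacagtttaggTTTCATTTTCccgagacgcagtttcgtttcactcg
Bst2, chr16:18255058-18255117, - strand: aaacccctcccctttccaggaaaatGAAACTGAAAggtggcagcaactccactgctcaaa
The core began 44 bases before the gene start in Ifit3, 147 in Rsad2, 103 in Igtp, 76 in Parp14, 69 in Irf7 and 125 in Bst2. Bst2 held a second, overlapping core that began 131 bases before its start. These letters come from the reference assembly and not from SS or BN animals of the study.

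In control lungs the effectors past the test were also mostly higher in SS. There 11 of 41 effectors were higher in SS and 2 higher in BN (5.87% and 5.16% of all genes), with a median of 0.35. Without SS control 3 the control counts were 23 and 2 (5.16% and 4.16% of all genes) and the median was 0.47. The mean of the 41 effectors, centred on the 12 arrays, was 0.33, 0.24 and 0.37 in SS HTV, -0.20, -0.28 and -0.37 in BN HTV, 0.18, 0.38 and -0.15 in SS control and -0.05, -0.21 and -0.24 in BN control lungs. SS control 3 thus lay within the range of the BN controls, and the other 2 SS controls lay above all BN arrays. Ifit3 differed by 1.08 in control lungs (adjusted p = 0.0175) and Irf7 by 1.20 (adjusted p = 0.00551), while Dhx58 at 0.18 and Oasl at 0.24 did not pass there. Without SS control 3 the control differences of Dhx58 and Oasl were 0.41 (adjusted p = 0.106) and 0.46 (adjusted p = 0.137). The test of a change in the strain difference between HTV and control lungs called none of them (Dhx58 unadjusted p = 0.00636, Oasl unadjusted p = 0.00666, and 0.0104 and 0.015 without SS control 3).

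Antigen presentation genes past the test differed in both directions. Of 24 measured genes of MHC class I and antigen processing, 2 were higher in SS and 4 higher in BN (2 and 3 with the covariate), and of 9 class II genes 2 were higher in SS and 1 in BN (0 and 1 with the covariate). The largest difference of all genes was at RT1-CE5, a class I gene, with intensities of 0.7, 1.1 and 0.7 in SS HTV and 803.0, 714.1 and 773.4 in BN HTV lungs. Its probe set gave next to no intensity in SS (-5.53 ± 0.89, adjusted p = 0.00212). RT1-Ba, a class II alpha chain, stood at 94.9, 95.4 and 61.0 against 1955, 2138 and 2006 (-4.38 ± 0.19, adjusted p = 1.56e-08). Another RT1-Ba probe set differed the opposite way, by 1.66 (adjusted p = 0.000574), with means of 1024 in SS and 314.6 in BN. RT1 genes are near-identical copies that vary between strains, and their values are uncertain as levels of any 1 gene. RT1-CE12 (0.72 ± 0.15) was higher in SS and RT1-CE16 (-0.81 ± 0.16) in BN. Nlrc5, the transactivator of class I genes, was measured at 88.2, 75.6 and 99.2 in SS against 43.2, 49.6 and 31.3 in BN (0.86 ± 0.17, adjusted p = 0.00809). The immunoproteasome subunit Psmb9 did not pass (0.48 ± 0.15, adjusted p = 0.0688). Cd1d1, which presents lipids, was higher in BN (-0.79 ± 0.17, adjusted p = 0.0135). The covariate ended the calls of Nlrc5 (adjusted p = 0.0715) and Cd1d1 (adjusted p = 0.105), and RT1-T24-3 then passed towards SS.

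Collagens past the test in HTV lungs were higher in SS with 1 exception, and most members did not pass. Of 23 measured collagen genes, 8 (34.8%) were higher in SS, 1 (4.35%) was higher in BN and 14 did not pass, with a median difference of 0.41. With the beta-actin covariate 6 were higher in SS and 0 in BN. Summed over the list, intensity was 17619 to 18196 in SS HTV and 11243 to 12024 in BN HTV arrays. In control lungs 5 were higher in SS and 1 in BN (5.87% and 5.16% of all genes), with a median of -0.03. Without SS control 3 the control counts were the same (5.16% and 4.16% of all genes) and the median was 0.14.

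Col1a1, the main chain of the type I collagen fibre, had intensities of 1454, 1503 and 1552 in SS HTV and 385.1, 434.0 and 413.1 in BN HTV lungs. The SS arrays lay within a narrow range far above the BN arrays, with a difference of 1.83 ± 0.15 (adjusted p = 9.37e-06). In control lungs Col1a1 stood at 1110, 1227 and 1156 against 831.4, 484.3 and 641.6 (0.85, adjusted p = 0.00316). The change in the strain difference was 0.98 ± 0.21 for Col1a1 (unadjusted p = 0.000367, adjusted p = 0.53). Its partner chain Col1a2 was at 1277, 1490 and 1455 against 650.2, 622.5 and 811.1 (1.01 ± 0.16, adjusted p = 0.0017). Second probe sets of Col1a1 and Col1a2 gave 1.02 (adjusted p = 0.000434) and 0.93 (adjusted p = 4.82e-05).

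Col15a1, of the basement membrane zone, stood at 485.0, 490.5 and 599.7 in SS and 211.2, 232.2 and 244.3 in BN HTV lungs, and the strains did not overlap (1.14 ± 0.11, adjusted p = 3.48e-05). Its change from the control difference of 0.45 had an unadjusted p of 0.000478. Col3a1 and Col5a2, which form fibres together with type I collagen, differed by 0.80 ± 0.14 and 0.74 ± 0.10, and the basement membrane chain Col4a5 by 0.62 ± 0.11. These 6 calls and that of Col8a1, a short-chain collagen of vessels that was higher in BN (-0.96 ± 0.19, adjusted p = 0.00713), were kept whichever array was left out, and the covariate ended that of Col8a1 (adjusted p = 0.065). The calls of Col4a2 (0.64 ± 0.15) and Col6a2 (0.86 ± 0.23) were lost without SS HTV 2 or 3 or BN HTV 2 or 3, that of Col6a2 also without SS HTV 1 (adjusted p up to 0.113). Col4a1 (0.40 ± 0.14, adjusted p = 0.0998), Col14a1 (0.58 ± 0.20, adjusted p = 0.0858), Col6a3 (0.34 ± 0.13, adjusted p = 0.134) and Col5a1 (0.41 ± 0.18, adjusted p = 0.182) did not pass.

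Of 53 measured non-collagen matrix genes, 10 (18.9%) were higher in SS and 3 (5.66%) in BN, with a median of 0.28 (7 and 3 with the covariate). In control lungs 8 were higher in SS and 4 in BN (5.87% and 5.16% of all genes), with a median of 0.07. Without SS control 3 the control counts were the same (5.16% and 4.16% of all genes) and the median was 0.17. Ogn, which encodes the small proteoglycan osteoglycin, was at 1155, 1293 and 1067 in SS HTV and 172.7, 117.8 and 221.3 in BN HTV lungs. This was the widest gap towards SS among matrix genes, 2.71 ± 0.27 (adjusted p = 4.83e-05). Of its 3 other probe sets, 1 differed by 2.05 (adjusted p = 0.000573), and the others gave 0.57 (adjusted p = 0.0982) and 0.24 (adjusted p = 0.746). Lama2, a laminin chain of muscle and stromal basement membranes, was at 303.4, 313.2 and 247.9 against 123.1, 100.1 and 107.0 (1.27 ± 0.17, adjusted p = 0.000557). The vascular laminin chain Lama4 differed by 0.81 ± 0.15 (0.05 in a second, dimmer probe set, adjusted p = 0.916). Fbn1, the fibrillin of elastic microfibrils, differed by 0.90 ± 0.12 (0.35 in a second probe set, adjusted p = 0.075), Fbln5, which organises elastic fibres, by 0.72 ± 0.14, the collagen-binding proteoglycan Fmod by 0.81 ± 0.15 and Agrn, the basement membrane proteoglycan agrin, by 0.63 ± 0.10. The calls of these 7 genes were kept whichever array was left out, and the covariate ended that of Fbln5 (adjusted p = 0.0703). In control lungs Ogn, Lama2, Lama4, Fbn1 and Fbln5 were past the test towards SS too. Fmod was as well, but not without SS control 3 (adjusted p = 0.0491 and 0.114). Agrn did not pass there (0.11, adjusted p = 0.49). Other small proteoglycans, Dcn (0.46 ± 0.19, adjusted p = 0.168) and Lum (0.45 ± 0.17, adjusted p = 0.121), and fibronectin, Fn1 (-0.35 ± 0.11, adjusted p = 0.0728), did not pass.

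The matrix genes higher in BN included a matricellular pair that responds to mechanical stretch. Ccn1 had intensities of 627.3, 428.5 and 630.9 in BN HTV and 22.9, 26.1 and 22.2 in SS HTV lungs, a difference of -3.84 ± 0.22 (adjusted p = 3.63e-07). In control lungs it stood at 169.1, 226.5 and 152.4 in BN and 10.4, 28.2 and 8.4 in SS (-2.68), and the change in the strain difference had an unadjusted p of 0.00269 (adjusted p = 0.53). Its relative Ccn2 was at 2898, 3049 and 2463 in BN against 1832, 1542 and 1959 in SS (-0.65 ± 0.13, adjusted p = 0.00932), a call that was lost without SS HTV 2 (adjusted p = 0.0546). Clec3b, which encodes the plasminogen-binding protein tetranectin, was at 326.2, 333.1 and 466.3 in BN and 4.6, 3.9 and 6.3 in SS (-4.21 ± 0.64, adjusted p = 0.00147), and a second probe set gave -2.96 (adjusted p = 0.00189). Clec3b also differed in control lungs (-3.32, adjusted p = 0.00645).

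Most matrix proteases, inhibitors and crosslinkers did not pass. Of 48 measured, 5 (10.4%) were higher in SS and 1 (2.08%) in BN, and with the covariate 0 passed. The gelatinase Mmp2 stood at 920.3, 1109 and 959.0 in SS and 677.9, 562.0 and 695.5 in BN (0.62 ± 0.12, adjusted p = 0.00624), the 1 call of this list that was kept whichever array was left out. The calls of Serpinh1, a collagen chaperone (0.45 ± 0.12), Bmp1, which trims procollagen ends (0.47 ± 0.12), Adam10 (0.70 ± 0.17), Serpina1 (1.86 ± 0.41) and, higher in BN, Adam15 (-0.65 ± 0.14) were each lost without SS HTV 2, and each without at least 1 further HTV array of either strain (adjusted p up to 0.115). Bmp1 differed by -0.32 in control lungs, and the change had an unadjusted p of 0.000371 (adjusted p = 0.53). Second probe sets of Bmp1 (0.42, adjusted p = 0.367) and Adam10 (0.49, adjusted p = 0.0895) did not pass under HTV. The neutrophil collagenase Mmp8 (0.96 ± 0.48, adjusted p = 0.253) and gelatinase Mmp9 (0.74 ± 0.74, adjusted p = 0.601) did not pass, and their lowest HTV intensities, 68.2 and 19.2, were both in BN HTV 3.

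**Figure D3:**
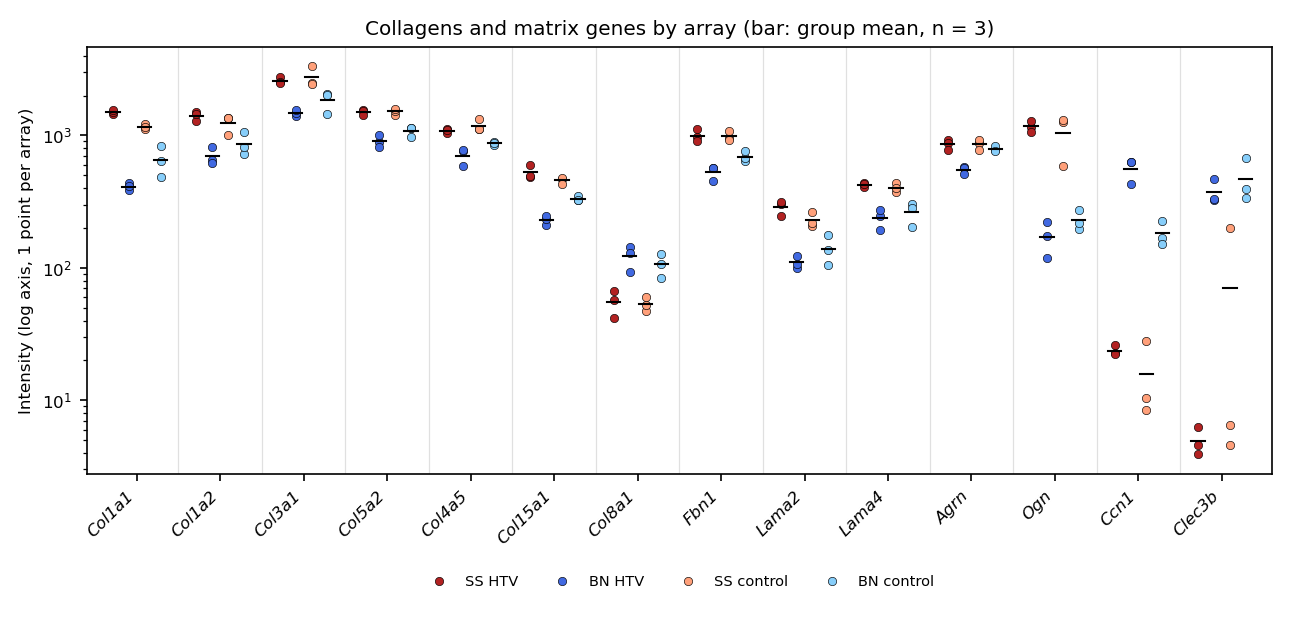
Intensity of 14 collagen and matrix genes (log axis), with 1 point per array and a bar at the mean of each group of 3. SS HTV points lie above BN HTV points for all genes shown except Col8a1, Ccn1 and Clec3b, where they lie below, and the SS control point of Clec3b at 198.4 is SS control 3.

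The complement C1q genes of interstitial macrophages were higher in SS HTV lungs, and most interstitial and most alveolar macrophage markers did not pass. Of 26 markers of interstitial macrophages and monocytes, 5 (19.2%) were higher in SS and 0 in BN, with a median of 0.39 (4 and 0 with the covariate). Of 20 alveolar macrophage markers, 3 (15%) were higher in SS and 2 (10%) in BN, with a median of 0.03 (0 and 1 with the covariate). Of 29 macrophage activation genes, 1 was higher in SS, Il18, and 0 in BN, with a median of -0.19 (0 and 0 with the covariate). Without SS control 3 the interstitial count under HTV was 8, and 5.76% of all genes were then higher in SS. In control lungs 8 of the 26 were higher in SS and 0 in BN (5.87% and 5.16% of all genes). Without SS control 3 these control counts were 7 and 0 (5.16% and 4.16% of all genes).

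C1qb was measured at 176.6, 151.9 and 211.5 in SS HTV and 72.3, 74.4 and 76.2 in BN HTV lungs, a difference of 1.11 ± 0.18 (adjusted p = 0.00212). C1qc stood at 223.9, 260.8 and 292.1 against 102.7, 142.7 and 116.4 (1.01 ± 0.17) and C1qa at 378.5, 326.2 and 317.4 against 175.2, 231.3 and 170.6 (0.78 ± 0.13). The 3 chains of C1q, the recognition unit of the classical pathway, were thus higher in SS on every array. They were also higher in SS control lungs, by 0.88, 1.07 and 0.53. Clec4a3, a lectin receptor of myeloid cells, differed by 0.74 ± 0.14, and the Fc receptor Fcgr3a by 0.76 ± 0.20, a call lost without SS HTV 2 or 3 or any of the 3 BN HTV arrays (adjusted p up to 0.14). The F4/80 gene Adgre1 (0.52 ± 0.17, adjusted p = 0.0812), Cd4, which rat monocytes carry (0.66 ± 0.25, adjusted p = 0.123), and Apoe (0.53 ± 0.17, adjusted p = 0.0695) did not pass.

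Itgax, the CD11c integrin chain of alveolar macrophages and dendritic cells, was higher in BN, at 405.2, 482.0 and 304.9 against 148.7, 98.2 and 155.0 in SS (-1.46 ± 0.20, adjusted p = 0.000829). The lysosomal marker Cd68 (0.58 ± 0.16), the cytokine Il18 (0.57 ± 0.13) and Krt19 (0.65 ± 0.16) were higher in SS and Plet1 (-0.45 ± 0.12) in BN. These last 4 calls were each lost without SS HTV 2 or SS HTV 3, and without other arrays (adjusted p up to 0.171). Dimmer Plet1 probe sets did not pass, at -0.03 (adjusted p = 0.961) and 0.37 (adjusted p = 0.403). The mannose receptor Mrc1 gave 0.10 ± 0.12 (adjusted p = 0.683). In the complement list of 16 genes 4 were higher in SS, the C1q chains and Cfd, and 1 in BN, the regulator Clu (-0.53 ± 0.11, adjusted p = 0.00953); with the covariate 3 and 1 passed, without Cfd. Cfd, or factor D (0.78 ± 0.21), was lost without SS HTV 1 or 2 or any BN HTV array (adjusted p up to 0.121).

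The inflammatory cytokines Il1b, Il1a and Cxcl2 did not pass the test between strains. Il1b stood at 1587, 345.4 and 1326 in SS HTV and 2407, 1346 and 366.0 in BN HTV lungs, so that SS HTV 2 and BN HTV 3 were low in their groups (-0.23 ± 0.59, adjusted p = 0.866). The chemokine Cxcl2 followed the same arrays, at 970.3, 199.6 and 902.4 against 1507, 997.1 and 268.6 (-0.39 ± 0.58, adjusted p = 0.746). Il1a differed by -0.13 ± 0.17 (adjusted p = 0.703), and leaving out SS HTV 2 turned the sign of all 3 genes, as did leaving out BN HTV 1 for Il1b and Cxcl2. Heme oxygenase, Hmox1, did not pass (-1.5 ± 0.63, adjusted p = 0.169), with 2018 in BN HTV 2 against 110.1 to 197.1 in the other 5 HTV arrays.

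Neutrophil markers had 1 of 11 higher in SS, Stfa2l2, a cysteine protease inhibitor (1.85 ± 0.53, adjusted p = 0.046), whose call was lost without any of 10 arrays, SS control 3 and BN HTV 1 being the exceptions (adjusted p up to 0.144), and with the covariate 0 passed. Their mean-centred level was 1.47, 0.74 and 1.44 in SS HTV and 1.5, 1.23 and -0.53 in BN HTV arrays. Of 21 T and NK cell markers 2 were higher in SS, the granzyme Gzmb (1.27 ± 0.28, lost without SS HTV 3 or BN HTV 2) and Cd8a (0.88 ± 0.21, lost without SS HTV 2 or 3 or BN HTV 1 or 2; adjusted p up to 0.0776 for both), and all 21 had a difference above 0. With the covariate 0 of the 21 passed (Gzmb adjusted p = 0.122, Cd8a adjusted p = 0.13). A second Gzmb probe set did not pass (0.60, adjusted p = 0.207). Summed intensity over that list was 2990 to 3268 in SS HTV and 1854 to 2547 in BN HTV arrays. In control lungs 5 of the 21 were higher in SS and 0 in BN (5.87% and 5.16% of all genes). The control median was 0.41 against 0.33 under HTV. Without SS control 3 the control counts were 10 and 0 (5.16% and 4.16% of all genes) and the median was 0.62. B and plasma cell (7), airway epithelial (17) and red cell and platelet (6) markers had 0 past the limma test (2, 2 and 1 at an unadjusted p under 0.05). Mast cell, basophil and eosinophil markers had 1 of 7 higher in SS, the mast cell carboxypeptidase Cpa3 (1.09 ± 0.26), which was lost without SS HTV 2 or 3 or BN HTV 1 or 2 (adjusted p up to 0.0845) and with the covariate (adjusted p = 0.0755). Fibroblast markers had 4 of 20 higher in SS, the collagens Col1a1, Col1a2 and Col3a1 with Dpt (0.63 ± 0.18), and 1 higher in BN, the lipid droplet gene Plin2 (-0.49 ± 0.12), and the covariate kept these 4 and 1 calls. Second, dimmer probe sets did not pass for Dpt (0.08, adjusted p = 0.857) or Plin2 (-0.03, adjusted p = 0.95). The call of Dpt was lost without any of 8 arrays (adjusted p up to 0.181; SS HTV 1, 2 and 3, BN HTV 1 and 2 and the 3 BN controls) and that of Plin2 without SS HTV 1 or 3 or BN HTV 2 (adjusted p up to 0.0929). Summed intensity of the fibroblast list was 17038 to 17926 in SS HTV and 13914 to 15160 in BN HTV arrays. That sum includes the bright collagens Col1a1, Col1a2 and Col3a1. The median difference of the list was 0.15, with 11 of 20 genes above 0. Whether cell numbers take part in the interferon, collagen or macrophage differences was not tested.

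Itgal, the CD11a chain of the leukocyte integrin LFA-1 and the 1 member past the test of 17 NF-kB feedback and adhesion genes, had the largest difference towards SS of all genes. It was measured at 843.1, 596.8 and 705.1 in SS HTV and 65.1, 43.3 and 49.2 in BN HTV lungs, and at 462.4 to 805.9 and 51.2 to 65.3 in the controls. The difference was 3.41 ± 0.20 under HTV (adjusted p = 3.63e-07) and 3.15 in controls, and the HTV call was kept with the covariate. Next towards SS came Echdc2, a mitochondrial hydratase family member (3.25 ± 0.30), and Cyp1a1, a xenobiotic monooxygenase, at 128.4, 313.1 and 89.6 in SS and 4.0, 2.7 and 4.6 in BN (3.12 ± 0.34, adjusted p = 0.000105). Rnf6, a ubiquitin ligase (2.21 ± 0.19), the class I pseudogene H2-Q7-ps1 (2.07 ± 0.15), PCOLCE2, an enhancer of procollagen processing (1.97 ± 0.31), and the glutathione transferase Gsta4 (1.73 ± 0.24) followed. The aldehyde oxidase Aox1 (2.03 ± 0.47) was lost without SS HTV 2 or 3 or BN HTV 1 or 2 (adjusted p up to 0.0632) and with the covariate (adjusted p = 0.105). All of these except Aox1 were past the test in control lungs too, and Aox1 was when SS control 3 was left out (1.37, adjusted p = 0.0705, with it and 2.18, adjusted p = 1.05e-05, without it).

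Towards BN, after the RT1 genes, Clec3b and Ccn1, the largest differences were at Acta1, skeletal muscle actin (-2.73 ± 0.33), the mitotic kinase Aurkb (-2.71 ± 0.24), the cardiac troponin Tnnt2 (-2.59 ± 0.62) and the AP-1 subunit Jund (-2.45 ± 0.22). Slc16a13, a monocarboxylate transporter (-2.44 ± 0.50), Cmahp (-2.32 ± 0.15), myoglobin, Mb (-2.31 ± 0.42), Myl4 (-2.21 ± 0.56), Ankrd12 (-2.21 ± 0.35), the disulfide isomerase Pdia5 (-2.15 ± 0.20) and Cped1 (-2.07 ± 0.28) completed the 15 largest. A second Ankrd12 probe set did not pass (-0.37, adjusted p = 0.379). The calls of Tnnt2 and Myl4 were lost without SS HTV 2 or 3 or BN HTV 1 or 2 (adjusted p up to 0.12), and the covariate ended those of Tnnt2, Myl4 and Slc16a13 (adjusted p = 0.125, 0.11 and 0.056). Aurkb stood at 451.9, 423.1 and 626.2 in BN and 77.2, 55.5 and 54.8 in SS HTV lungs, and differed as much in controls (-2.61). Acta1 was at 212.6, 441.5 and 207.8 in BN HTV against 32.9, 28.7 and 20.6 in SS HTV, and in controls the difference of -1.02 did not pass (adjusted p = 0.059; change in the strain difference, unadjusted p = 0.00259).

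Muscle markers past the test were higher in BN, most did not pass, and levels varied strongly between arrays. Of 20 smooth and cardiac muscle markers 5 (25%) were higher in BN and 0 in SS, with a median of -0.64, and 1 passed with the covariate. In control lungs 8 were higher in BN and 1 in SS (5.16% and 5.87% of all genes). Without SS control 3 these control counts were 6 and 1 (4.16% and 5.16% of all genes). Myoglobin stood at 205.5, 387.7 and 195.5 in BN HTV and 94.1, 32.2 and 13 in SS HTV lungs, and Tnnt2 at 375.4, 571.0 and 119.4 against 93.2, 46.5 and 5.0. The list's mean-centred level was 0.29, -0.22 and -0.80 in SS HTV and 0.74, 1.01 and 0.05 in BN HTV arrays, so that SS HTV 1 lay above BN HTV 3. Leaving out SS HTV 2, SS HTV 3, BN HTV 1 or BN HTV 2 left 1 of the 5 calls, Mb, and ended those of Tnnt2, Myl4, Ryr2 and Ttn (adjusted p up to 0.172), whereas 9 genes passed without BN HTV 3. The atrial peptide Nppa (-1.88 ± 0.71, adjusted p = 0.125) and cardiac troponin Tnni3 (-1.52 ± 0.45, adjusted p = 0.0529) did not pass under HTV, and both did in controls (adjusted p = 0.031 and 0.0249; 0.0753 and 0.0406 without SS control 3). How much heart or vessel muscle each sample held was not tested.

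Early-response genes past the test were also higher in BN, and most did not pass. Of 29 immediate-early genes 6 (20.7%) were higher in BN and 0 in SS, with a median of -0.33, and 1 passed with the covariate. Jund was at 2251, 2055 and 1861 in BN and 286.5, 450.3 and 369.6 in SS HTV lungs, kept its call without any array, and had a second probe set at -3.69. The growth-arrest gene Gadd45b stood at 875.2, 699.3 and 522.0 against 388.4, 270.7 and 342.9 (-1.01 ± 0.21, adjusted p = 0.0102), and Ier3, Ier2, Egr2 and Klf6 differed by -0.66, -0.57, -0.51 and -0.39. The calls of these 5 genes were lost without SS HTV 2, and the list then had 1 call, Jund (adjusted p up to 0.172 over all omissions, 0.0559 for Gadd45b). Fos did not pass (-0.43 ± 0.14, adjusted p = 0.0683). In control lungs 2 of the 29 (6.90%) were higher in BN and 0 in SS (5.16% and 5.87% of all genes). The dimmer Klf6 probe sets did not pass under HTV, at 0.27 (adjusted p = 0.24) and -0.37 (adjusted p = 0.257). The former was past the test towards SS in control lungs (0.75, adjusted p = 0.00355).

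Endothelial markers had 3 of 28 higher in BN and 0 in SS (2 and 0 with the covariate). The junction receptor Pecam1 was at 765.1, 816.8 and 759.0 in BN and 435.2, 528.8 and 532.4 in SS HTV lungs (-0.63 ± 0.11, adjusted p = 0.0032). Vwf, the clotting factor carrier of endothelial granules, was at 1723, 1825 and 1896 against 1320, 1265 and 1040 (-0.59 ± 0.12, adjusted p = 0.00925). In controls they differed by -0.52 and -0.89. The arterial connexin Gja5 (-0.83 ± 0.18) was lost without BN HTV 2 (adjusted p = 0.0548). A second Gja5 probe set did not pass (-0.45, adjusted p = 0.165). Of 31 genes of blood pressure and vascular tone 2 were higher in SS and 0 in BN (1 and 0 with the covariate, which ended the call of Cyba). They were endothelin, Edn1, at 1072, 767.6 and 1179 in SS and 577.2, 524.3 and 413.6 in BN (0.96 ± 0.17, adjusted p = 0.00464), and the oxidase subunit Cyba (0.56 ± 0.14), whose call ended when SS HTV 2, SS HTV 3 or BN HTV 3 was left out (highest adjusted p = 0.103).

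Enzymes of detoxification that passed differed in both directions. Of 34 cytochrome P450 and xenobiotic enzymes 4 were higher in SS and 3 in BN (2 and 1 with the covariate), and of 34 glutathione, Nrf2 and metallothionein genes 3 and 2 (1 and 1). The epoxide hydrolase Ephx2 was at 120.7, 107.6 and 98.1 in BN and 39.5, 17.1 and 16.9 in SS (-1.67 ± 0.33; adjusted p = 0.0528 with the covariate), and the aldo-keto reductase Akr1b8 at 229.9, 387.5 and 241.9 against 102.2, 127.5 and 92.8 (-1.26 ± 0.20). Among alpha-class glutathione transferases Gsta4 was higher in SS, at 638.5, 907.6 and 812.7 against 197.3, 168.5 and 332.7, and Gsta3 in BN (-1.10 ± 0.20). Of 20 alveolar epithelial markers, Akap5 was higher in BN, at 877.4, 799.1 and 891.0 against 247.0, 210.2 and 174.5 (-1.95 ± 0.21, adjusted p = 0.000109), and Aqp5, the water channel of type 1 cells, in SS (0.39 ± 0.10), which was lost without any SS HTV array or BN HTV 2 (adjusted p up to 0.106). With the covariate Akap5 passed and Aqp5 did not. Of 45 oxidative phosphorylation genes 0 passed by limma under HTV in either direction (6 at an unadjusted p under 0.05), where 14 were above all BN arrays in every SS array and 1 below (15.9% and 12.5% of all genes). In controls 7 were higher in SS (5.87% of all genes), and 3 were without SS control 3 (5.16% of all genes).

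**Figure D4:**
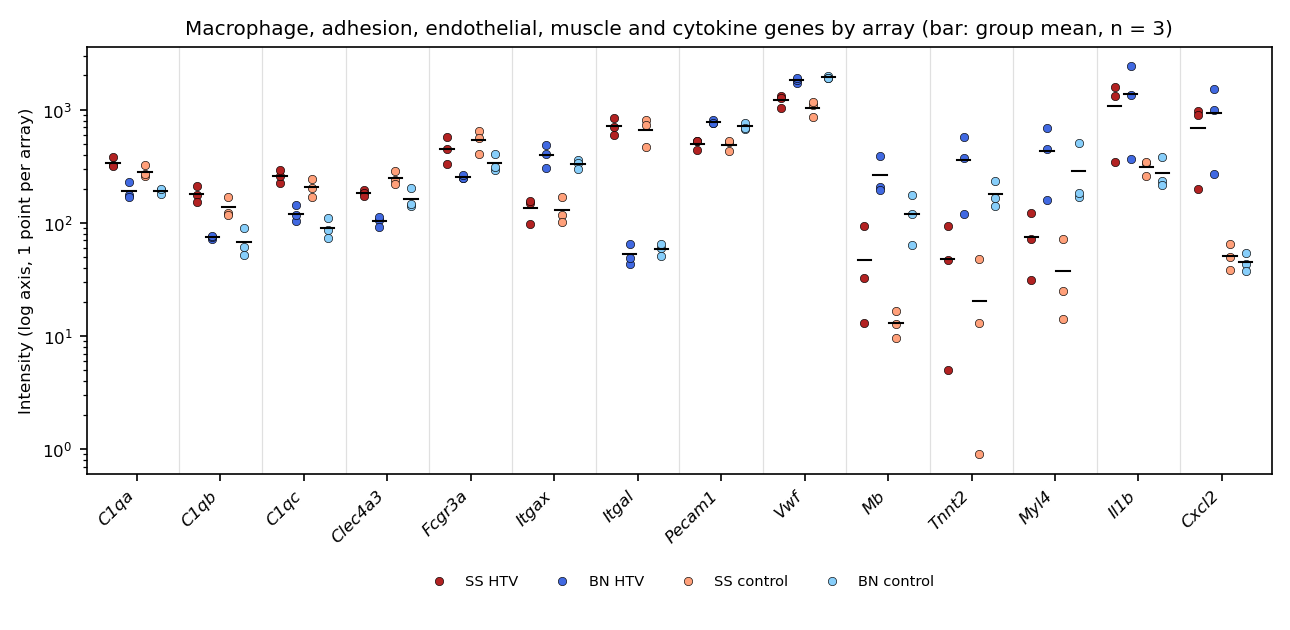
Intensity of 14 macrophage, adhesion, endothelial, muscle and cytokine genes (log axis), with 1 point per array and a bar at the mean of each group of 3. C1q genes, Clec4a3, Fcgr3a and Itgal are higher in SS HTV, Itgax, Pecam1, Vwf and the muscle genes Mb, Tnnt2 and Myl4 higher in BN HTV, and Il1b and Cxcl2 overlap between strains.

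Of the 768 genes past the test, 196 had at least 2 tested probe sets. For 127 of them every other probe set differed in the same direction, and for 45 at least 1 other was itself past the test that way. For 7 genes, RT1-Ba among them, another probe set passed in the opposite direction. For Sftpb, a second probe set at 322.7 to 711.0 in SS HTV and 2012 to 2658 in BN HTV arrays stood against the overlapping brighter one. In SS HTV lungs the mean was 4.93 at Clec3b and 5.47 at the second Jund probe set, against 375.2 and 265 in BN HTV lungs. Probe sequences were not checked against either strain for any gene. Whether sequence differences under the probes take part in these or other strain differences was not tested.

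Most genes past the test under HTV differed with the same sign in control lungs, which were measured on other arrays and shared only the estimate of spread. Of the 768 genes 403 were past the test in the same direction in controls, which is 52.5% of the HTV calls and 34.6% of the 1165 control calls (11.0% of genes). In all, 735 (95.7%) had the same sign, and without SS control 3 the counts were 411 and 741, with 984 control calls (9.32% of genes). The median size of the difference over the 768 genes was 0.65 under HTV, which chose them, and 0.50 in controls. Sbds, named here after its values were seen, was past the test in opposite directions. It encodes a ribosome maturation factor and differed by -0.72 under HTV and 0.54 in controls (change -1.26 ± 0.22, unadjusted p = 5.93e-05, adjusted p = 0.53). Without SS control 3 there was no such gene.

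**Figure D5:**
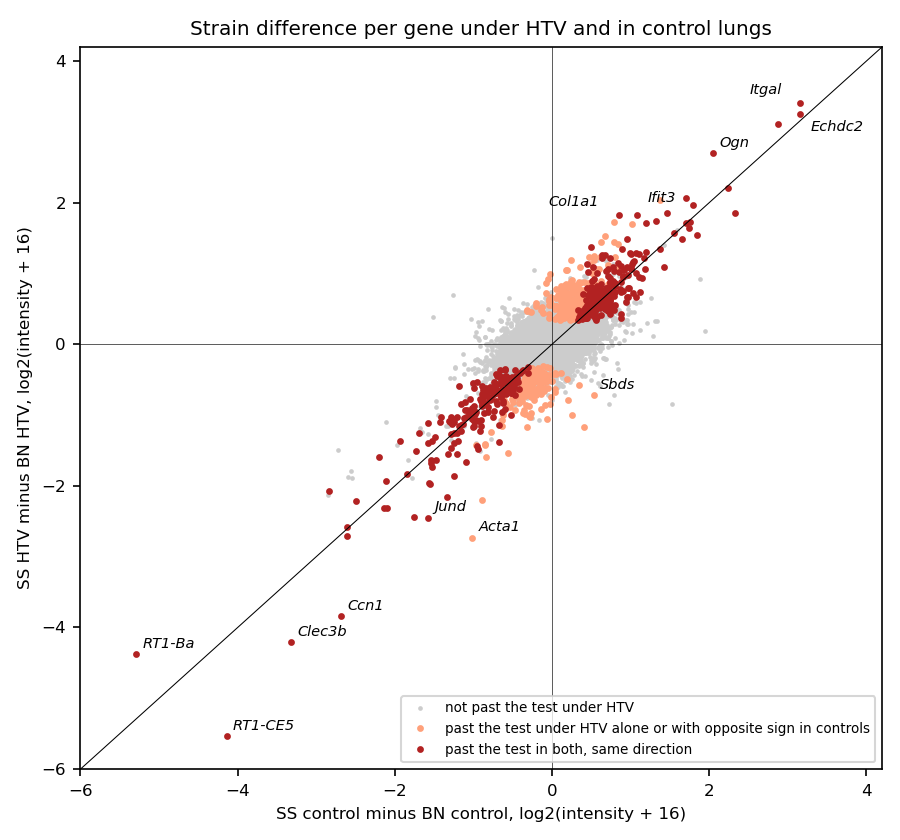
Difference between strains per gene, SS minus BN in log2(intensity + 16), in control lungs (horizontal axis) and HTV lungs (vertical axis), with 1 point per gene and equal values on the diagonal line. Genes past the test under HTV lie mostly in the quadrants of equal sign (735 of 768), with Itgal and Echdc2 farthest towards SS and RT1-CE5, RT1-Ba, Clec3b and Ccn1 farthest towards BN.

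The test of whether the strain difference itself changed between control and HTV lungs called 0 of 10555 genes by limma (lowest adjusted p = 0.53), and 900 (8.53%) had an unadjusted p under 0.05. No difference described above was therefore shown to depend on HTV, and those not past the test in controls were not shown to be absent there.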

How the data were processed

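Each array was deposited as a column of linear intensity values, 1 for each probe set. MAS5 is the tool in the submitters' processing notes, with settings not given in the sources used here; per the labels' protocols 3 samples were profiled per strain and condition. The trimmed mean (about 150 on every array) showed scaling per array, so the deposited intensity was not normalised again, and detection calls were not used. Control probe sets (57) were left out. The platform annotation gave 1 gene to 20832 probe sets, several to 436 and none to 9780, with 14218 distinct genes; RefSeq (GRCr8) changed 0 symbols and lacked 68 identifiers. Probe sets whose mean over the arrays reached the 40th percentile (43.6) were kept, and the brightest of a gene's kept probe sets stands for it. Values of log2(intensity + 16) were fitted as 4 group means over 12 arrays with limma 3.58.1 in R 4.3.3 (eBayes with trend, Benjamini-Hochberg over 18626 probe sets). The number of arrays limits the precision.

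The comparison, its members and the 28 gene lists (927 entries) were chosen with earlier results of these data known, and lists are described by counts and medians without a set test. Named are the 15 largest differences each way among genes past the test without overlap of arrays, in each list the members of smallest p (up to 8), and members of the interferon, matrix and macrophage lists; which of these were printed was decided after their values were seen. On simulated data for the HTV comparison (18626 probe sets) the model found 11% of changes of 0.5 and 75% of changes of 1 log2 unit. The simulation changed a smaller share of probe sets than passed the test in the data. Adjusted p depends on that share, so these rates may not hold for the data. Alternatives were pseudocounts 1 and 64, no filter, the 60th percentile, quantile normalization, median centring, no trend, array weights, only the arrays compared, the beta-actin ratio as a covariate, the mean of a gene's probe sets, and each array left out; list counts under these were added after the data were seen.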

Additional observations from a re-analysis of the deposited data

How the results depend on the processing

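The HTV count of 1559 probe sets was 602 with the beta-actin covariate, 699 to 1462 with 1 HTV array left out (699 without SS HTV 2, 782 without SS HTV 3, 910 without BN HTV 2 and 1001 without BN HTV 1) 1357 to 2216 with 1 control array left out (2216 without SS control 3) and 1190 to 2073 under the other settings. The control count of 2296 was 4138 with array weights, 1479 with only the arrays compared and 758 to 2158 with 1 control array left out. The interaction count of 0 was 1 without SS control 2 and 0 under every other setting run. Interferon receptors, sensors and transcription factors had 3 genes higher in SS with the 60th percentile filter. For list counts the arrays left out were each HTV array and SS control 3, and not the other controls. Interferon effectors had 11 with the covariate and 12 to 22 with 1 of those arrays left out, and interstitial macrophage and monocyte markers 4 to 8. Muscle markers higher in BN numbered 2 without a filter, 3 with only the arrays compared, 1 with the covariate and 1 to 9 with 1 of those arrays left out. Immediate-early genes higher in BN numbered 3 without a filter, 3 without a trend, 3 with only the arrays compared, 1 with the covariate and 1 to 7 with 1 of those arrays left out. The counts of collagens and other matrix genes stayed within 1.5 times under the settings run. Of the 123 genes past the test among the 148 examined, 70 kept the call whichever HTV array was left out. The difference of Il1a was 0.072 with the mean of its probe sets. With 1 HTV array left out it was -0.26 to 0.061 for Il1a, -0.98 to 0.44 for Il1b and -1.10 to 0.32 for Cxcl2, above 0 for Il1b and Cxcl2 without SS HTV 2 (0.44 and 0.32) or BN HTV 1 (0.35 and 0.11), and for Mmp9 it was -0.42 without BN HTV 3. The covariate fit estimates 1 more term from the same 12 arrays; for the others the cause was not tested. No paired analysis was possible because the labels of the groups share no replicate numbers.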
